A study of Mus musculus with 4 samples.

Results

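The genes described here are the 10 that carry the main steps of major histocompatibility complex (MHC) class I antigen presentation in the mouse, *H2-K1*, *H2-D1*, *B2m*, *Tap1*, *Tap2*, *Tapbp*, *Psmb8*, *Psmb9*, *Psmb10* and *Nlrc5*. They were taken by symbol from the 32285 genes counted, and all 10 were found. Of these, 9 were among the 12972 genes with a mean of 1 or more CPM (UMIs of the gene per 1000000 UMIs) over the 4 libraries, and *Nlrc5* lay just under that limit at a mean of 0.968 CPM. UMIs are unique molecular identifiers, each standing for 1 captured RNA molecule.

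Nearly all nucleated cells show peptides of their own proteins on MHC class I molecules, and cytotoxic T cells read them. The proteasome cuts the peptides, the TAP transporter brings them into the endoplasmic reticulum, tapasin helps to load them, and the loaded heavy chain with beta-2 microglobulin travels to the cell surface. Interferons raise the genes of this pathway in many cell types, and in adipose tissue both stromal cells and adipocytes present antigen on class I.

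The cells were primary cultures from mouse white adipose tissue, sequenced as droplet libraries with 10x Genomics 3′ chemistry. De-differentiated fat (DFAT) cells arise when floating mature adipocytes attach to the upper wall of a filled flask and lose their lipid. The libraries iWAT_DFAT and eWAT_DFAT hold such cells from the inguinal (iWAT, subcutaneous) and epididymal (eWAT, visceral) depot. The libraries iWAT_ASPC and eWAT_ASPC hold cultured stromal vascular fraction (SVF) cells of the same depots, which the study names adipose stem and progenitor cells (ASPCs). The mice were chow-fed C57BL/6J animals, with no treatment named for any of the 4 libraries. The cells were stained with the viability dye 7-AAD and sorted before loading. How many animals or flasks were pooled was not given in the sources used here.

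There was 1 library per condition, so the spread between cultures of a condition was not measured, no test between conditions was made, and each interval below is a 95% interval for counting error only. Barcodes were taken as cells when they held 5000 to 75000 UMIs, 200 to 7500 genes and under 10% mitochondrial UMIs. This left 7629 cells in iWAT_DFAT, 6464 in eWAT_DFAT, 7424 in iWAT_ASPC and 6745 in eWAT_ASPC, 28262 in all, with 183664704 to 199357348 UMIs per library in cells and a median of 22111 to 27617 UMIs per cell. Any pair of libraries shared 13 to 20 cell barcodes. A count of 3 UMIs, the limit that a count of 0 allows, stood for 0.0150 to 0.0163 CPM. The file headers name Cell Ranger 7.1.0 for 3 libraries and Cell Ranger 4 for iWAT_ASPC. The part of this difference in the results was not tested.

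A cluster was first named where 3 or more markers of another cell type were raised in it. Of the remaining clusters, those in which at least 5 of 11 ASPC markers were each detected in 50% or more of cells, called clusters with ASPC markers here, held 97.8% of the cells of iWAT_DFAT, 89.5% of eWAT_DFAT, 93.7% of iWAT_ASPC and 87.3% of eWAT_ASPC. The mesothelial-like and pericyte-like clusters described below also reached that number of ASPC markers (7 and 5 of 11) but were named from their own markers. The rule is per cluster, and for the libraries labelled DFAT it is the same. The summed ASPC markers were at 1851.7 CPM in eWAT_DFAT against 5049.2 to 6201.5 CPM in the other libraries. The remaining cells were endothelial-like, mesothelial-like, pericyte-like, neural-like, adipocyte-like or immune-like, or lay in 1 unnamed cluster of 720 cells with few UMIs. These cells bear on the class I genes and are described with them below. The thresholds used to name clusters were chosen once the clusters were known.

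In the mouse genome (GRCm38, GENCODE M21), 7 of the 10 genes lie within the MHC on chromosome 17. From the proximal end they are *Tapbp* (chr17:33915899-33929292, plus strand), *H2-K1* (chr17:33996017-34000347, minus), *Psmb9* (chr17:34181987-34187764, minus), *Tap1* (chr17:34187553-34197225, plus), *Psmb8* (chr17:34197721-34201454, plus), *Tap2* (chr17:34203527-34216321, plus) and *H2-D1* (chr17:35262730-35267499, plus). *B2m* lies on chromosome 2 (chr2:122147686-122153083, plus). *Nlrc5* (chr8:94434356-94527272, plus) and *Psmb10* (chr8:105935735-105938444, minus) lie on chromosome 8. *Tap1* and *Psmb9* overlap head to head on opposite strands, and *Tapbp* overlaps *Zbtb22* on the same strand, so reads there could belong to either gene. H2 heavy chains are similar in sequence. Over the last 500 bases of the longest transcript, where 3′ reads fall, 0 of 411 windows of 90 bases of any of the 10 genes were shared with another gene.

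RefSeq promoter windows (250 bases before to 50 bases after the start, GRCm38.p6) were matched by symbol for 8 of the 10 genes, with 2 start sites for *H2-K1*, of which the first is shown. Both strands were searched for 4 motifs known from class I promoters. These were the NF-κB site by name, 2 copies of GAAA with any 2 bases between them (the core of an interferon-stimulated response element), CCAAT (bound by NF-Y) and TGACG (bound by CREB and ATF factors). The promoters of *H2-K1*, *H2-D1*, *B2m* and *Tap1* are shown because they hold most of the matches and belong to genes that differ in how they varied between the libraries. Capitals mark the matched motifs.
H2-K1 (chr17:34000298-34000597, minus strand): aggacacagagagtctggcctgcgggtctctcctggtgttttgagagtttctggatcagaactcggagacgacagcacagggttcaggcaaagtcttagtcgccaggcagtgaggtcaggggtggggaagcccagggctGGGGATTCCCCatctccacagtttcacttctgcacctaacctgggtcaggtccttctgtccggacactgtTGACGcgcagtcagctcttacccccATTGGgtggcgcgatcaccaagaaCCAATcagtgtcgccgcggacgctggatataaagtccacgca
H2-D1 (chr17:35262844-35263143, plus strand): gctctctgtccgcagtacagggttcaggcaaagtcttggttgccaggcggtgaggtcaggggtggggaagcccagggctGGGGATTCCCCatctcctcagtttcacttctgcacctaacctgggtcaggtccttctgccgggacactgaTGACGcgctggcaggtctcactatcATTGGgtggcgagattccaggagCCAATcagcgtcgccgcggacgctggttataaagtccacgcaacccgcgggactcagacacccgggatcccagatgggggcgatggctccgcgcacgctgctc
B2m (chr2:122147437-122147736, plus strand): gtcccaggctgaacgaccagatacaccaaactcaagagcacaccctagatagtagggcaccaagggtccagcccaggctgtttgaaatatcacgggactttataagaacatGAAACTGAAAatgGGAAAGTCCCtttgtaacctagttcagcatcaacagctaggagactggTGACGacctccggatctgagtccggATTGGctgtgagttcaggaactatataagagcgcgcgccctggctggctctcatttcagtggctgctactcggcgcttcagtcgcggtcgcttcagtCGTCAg
Tap1 (chr17:34187306-34187605, plus strand): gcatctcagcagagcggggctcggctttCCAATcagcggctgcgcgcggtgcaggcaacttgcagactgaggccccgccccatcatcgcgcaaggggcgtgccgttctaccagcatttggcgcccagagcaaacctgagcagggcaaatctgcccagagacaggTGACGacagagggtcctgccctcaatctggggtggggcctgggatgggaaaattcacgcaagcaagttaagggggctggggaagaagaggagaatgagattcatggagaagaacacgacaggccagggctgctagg

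The heavy chain promoters are near copies of each other, with 206 identical bases in 228 aligned positions (90.4%), and share the NF-κB match, a TGACG and CCAAT on both strands. The NF-κB run of both, 11 capitals long, is 2 overlapping matches. *B2m* was the only 1 of the 8 genes with the paired GAAA, which 3.44% of all 32851 promoter windows hold. That search took the exact string, so a gene without a match may still hold a variant of the interferon-stimulated response element. The NF-κB motif was in 3 of 8 genes (*H2-K1*, *H2-D1* and *B2m*) against 8.46% of all windows, TGACG in 5 of 8 against 20.8%, and CCAAT in 6 of 8 against 37.4%. The windows of *Tap1* and *Psmb9* are 275 bases of the same DNA read in opposite directions, so their TGACG and CCAAT matches are counted for both genes. *Psmb8* and *Psmb10* had none of the 4 motifs in these windows. A match is a string of letters and says nothing here about binding.

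Among the peptide-binding heavy chains, *H2-K1*, which encodes the H2-K molecule, stood at 106.8 CPM (105.4 to 108.4) in iWAT_DFAT, 85.6 CPM (84.2 to 86.9) in eWAT_DFAT, 60.5 CPM (59.4 to 61.6) in iWAT_ASPC and 85.5 CPM (84.2 to 86.8) in eWAT_ASPC. The level was thus highest in iWAT_DFAT, lowest in iWAT_ASPC, and within counting error of each other in both eWAT libraries when all cells were taken. In the clusters with ASPC markers alone it was at 74.7 CPM (73.5 to 76.0) in eWAT_DFAT and 80.9 CPM (79.6 to 82.2) in eWAT_ASPC, without overlap. *H2-D1*, which encodes the H2-D molecule, was at 97.2 CPM (95.8 to 98.6) in iWAT_DFAT, 98.6 CPM (97.2 to 100.1) in eWAT_DFAT, 68.2 CPM (67.1 to 69.4) in iWAT_ASPC and 74.1 CPM (72.9 to 75.3) in eWAT_ASPC. Here both DFAT libraries lay above both ASPC libraries, and the DFAT intervals overlapped. *B2m*, the light chain that all class I heavy chains share, ran differently, with 274 CPM in iWAT_DFAT, 280 CPM in eWAT_DFAT, 285 CPM in iWAT_ASPC and 181 CPM in eWAT_ASPC (179.3 to 183.1). The first 3 lay close together for the light chain, and eWAT_ASPC stood low.

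For the transporter that carries peptides into the endoplasmic reticulum, *Tap1* was at 13.0 CPM (12.5 to 13.5) in iWAT_DFAT, 4.94 CPM (4.63 to 5.27) in eWAT_DFAT, 6.14 CPM (5.80 to 6.49) in iWAT_ASPC and 6.35 CPM (6.002 to 6.71) in eWAT_ASPC. Its partner subunit *Tap2* was at 11.0 CPM (10.6 to 11.5), 5.05 CPM (4.74 to 5.39), 7.85 CPM (7.46 to 8.24) and 9.78 CPM (9.34 to 10.2) in the same order. Both subunits were highest in iWAT_DFAT and lowest in eWAT_DFAT, and the ASPC libraries lay between them, with overlapping intervals for *Tap1*. *Tapbp* encodes tapasin, which bridges the transporter to the empty heavy chain, and was at 32.4 CPM (31.6 to 33.3) in iWAT_DFAT, 16.8 CPM (16.2 to 17.4) in eWAT_DFAT, 15.1 CPM (14.6 to 15.7) in iWAT_ASPC and 24.4 CPM (23.7 to 25.1) in eWAT_ASPC.

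The inducible proteasome subunits replace their constitutive counterparts in the immunoproteasome. *Psmb8* (LMP7) was at 34.9 CPM (34.0 to 35.7) in iWAT_DFAT, 15.1 CPM (14.5 to 15.6) in eWAT_DFAT, 11.8 CPM (11.3 to 12.3) in iWAT_ASPC and 26.7 CPM (26.0 to 27.4) in eWAT_ASPC. *Psmb9* (LMP2), at far lower counts of 194 to 1066 UMIs per library, was at 5.80 CPM (5.46 to 6.16), 1.61 CPM (1.43 to 1.80), 0.973 CPM (0.841 to 1.12) and 1.74 CPM (1.56 to 1.93) in that order. *Psmb10* (MECL-1) was at 39.0, 38.9, 38.7 and 42.4 CPM, a highest level only 1.10-fold above the lowest. *Psmb8* and *Tapbp* thus ranked iWAT_DFAT first and eWAT_ASPC next, *Psmb9* was high in iWAT_DFAT with overlapping intervals in both eWAT libraries, and *Psmb10* was nearly level.

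*Nlrc5* encodes the transactivator that switches on class I genes. It rested on 344, 209, 85 and 88 UMIs, or 1.87 CPM (1.68 to 2.08) in iWAT_DFAT, 1.13 CPM (0.979 to 1.29) in eWAT_DFAT, 0.426 CPM (0.341 to 0.527) in iWAT_ASPC and 0.445 CPM (0.357 to 0.549) in eWAT_ASPC. The DFAT libraries lay above both ASPC libraries, whose intervals overlapped. *Psmb9* had the widest range of the 10 genes, with 5.96-fold between highest and lowest library, followed by *Nlrc5* at 4.39-fold and *Psmb8* at 2.96-fold. *Tap1* spanned 2.63-fold, *Tap2* 2.18-fold, *Tapbp* 2.14-fold, *H2-K1* 1.77-fold, *B2m* 1.57-fold and *H2-D1* 1.45-fold. The median of this range was 2.14-fold over the 9 members past the 1 CPM limit and 1.59-fold over all genes past it.

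**Figure D1:**
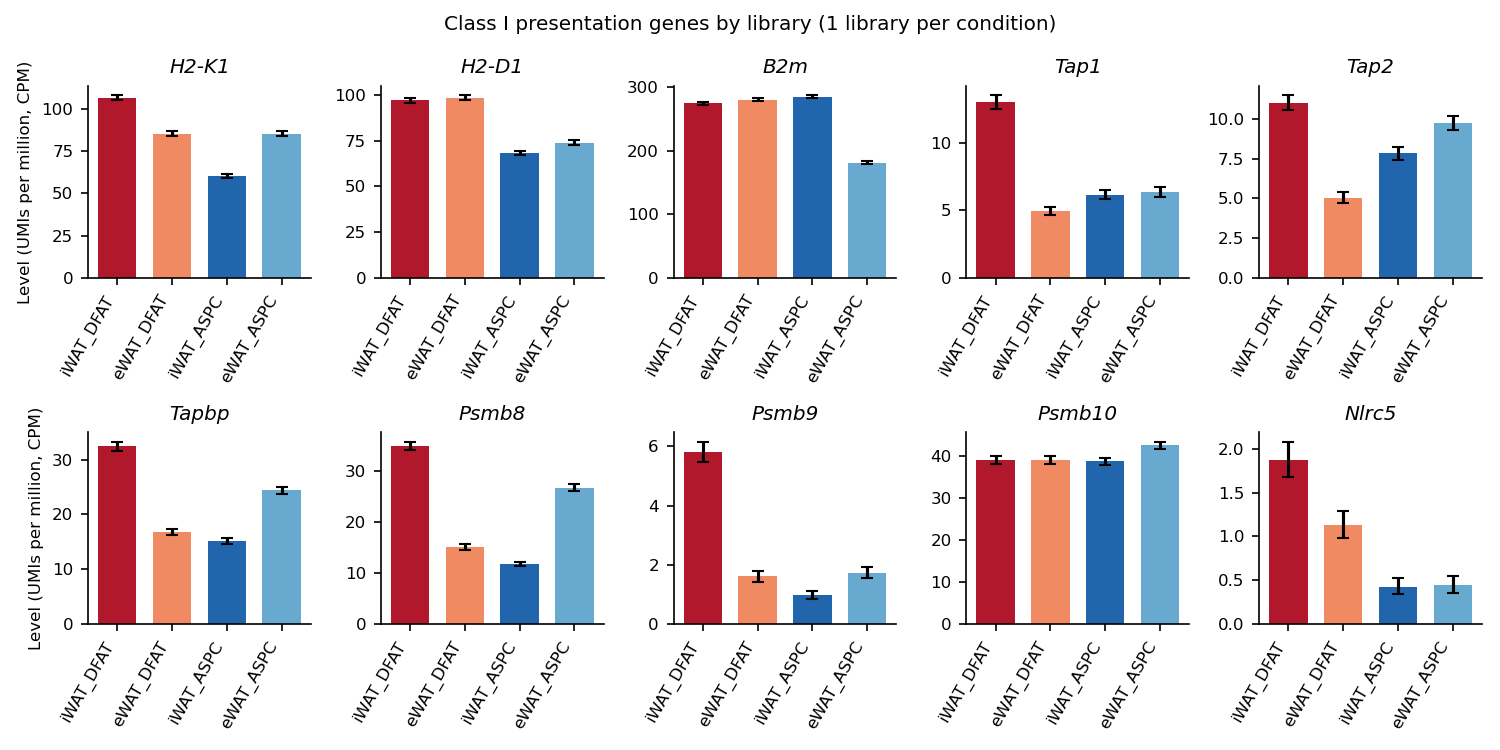
Levels of the 10 genes in CPM (y axes, linear from 0, 1 panel per gene) in the 4 libraries (x axes). Bars are counts summed over all cells of 1 library and whiskers are 95% Poisson intervals for counting error, and iWAT_DFAT is the highest bar in 7 of the panels, all but *H2-D1*, *B2m* and *Psmb10*.

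After each cell was thinned to 5000 UMIs, *Psmb8* was found in 16.9% of cells of iWAT_DFAT, 7.91% of eWAT_DFAT, 5.90% of iWAT_ASPC and 12.8% of eWAT_ASPC, against 47.5%, 29.8%, 22.6% and 44.7% without thinning. *B2m* was found in 72.2%, 70.7%, 73.4% and 58.0% of thinned cells, and *Psmb9* in 3.08%, 1.13%, 0.552% and 0.815%. The free RNA of droplets with 1 to 100 UMIs held all of these genes, with *Psmb8* at 35.2, 16.2, 12.7 and 23.1 CPM, near its level in cells. *B2m* was higher there than in the cells of every library, at 424.8, 359.5, 406.4 and 247.4 CPM. *H2-K1* in eWAT_ASPC was lower there, at 68.2 CPM against 85.5 CPM in cells. A single UMI in a cell is thus no proof of expression in that cell. No cell type of these cultures is known to lack class I genes and could serve as a background. *Psmb9* had 0 UMIs in the 166 neural-like cells of all libraries, which by the limit of 3 UMIs allows a level of up to 1.24 CPM. Of these cells 147 were of iWAT_ASPC, where *Psmb9* was at 0.941 CPM in the clusters with ASPC markers. The count of 0 thus does not place them below their own library.

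The comparison of depots among DFAT cells asks how cells of the same origin differ between subcutaneous and visceral fat. In iWAT_DFAT over eWAT_DFAT, *Psmb9* had a log2 ratio of 1.85 (1.66 to 2.04), *Tap1* of 1.40 (1.29 to 1.51), *Psmb8* of 1.21 (1.15 to 1.28) and *Tap2* of 1.13 (1.01 to 1.24). These 4 of the 9 members past the limit were higher by 2-fold or more, as were 8.74% of all genes, and 0 members were lower by 2-fold or more against 5.56% of all genes. *Tapbp* lay just inside the 2-fold line at 0.95 and *Nlrc5* was at 0.73. *H2-K1* was higher by 0.32, while *H2-D1* (−0.021, −0.051 to 0.0086), *B2m* (−0.030, −0.047 to −0.012) and *Psmb10* (0.0023, −0.045 to 0.050) were close to 0. The transporter and 2 of the 3 inducible proteasome subunits thus differed far more than the light chain. The median over the 10 genes was 0.84, and over all genes past the limit 0.076.

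The same depot comparison among cultured SVF cells gave the other direction for most of the genes. In iWAT_ASPC over eWAT_ASPC, *Psmb8* was lower by 2-fold or more, with a log2 ratio of −1.18 (−1.25 to −1.11), as were 4.86% of all genes, and 0 of 9 members were higher by that margin against 4.56% of all genes. *Psmb9* was at −0.84 (−1.10 to −0.58), *Tapbp* at −0.69, *H2-K1* at −0.50 and *Tap2* at −0.32. *B2m* went the other way at 0.65 (0.63 to 0.67). *H2-D1* at −0.12 and *Psmb10* at −0.13 were close to 0, and the intervals of *Tap1* and *Nlrc5* spanned 0. Cells outside the clusters with ASPC markers held 38.2% of the *Psmb9* UMIs of eWAT_ASPC, and with those clusters alone the *Psmb9* ratio was −0.32. The median over the 10 genes was −0.23, and over all genes 0.061.

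Comparing origins within a depot, iWAT_DFAT over iWAT_ASPC, sets cells that came from adipocytes against cells that came from the stroma. *Psmb9* had a log2 ratio of 2.58 (2.35 to 2.80), *Nlrc5* of 2.14 (1.79 to 2.50), *Psmb8* of 1.57 (1.498 to 1.64), *Tapbp* of 1.10 (1.04 to 1.16) and *Tap1* of 1.08 (0.98 to 1.18). Of the 9 members past the limit, 4 (*Tap1*, *Tapbp*, *Psmb8* and *Psmb9*) were higher by 2-fold or more against 10.5% of all genes, and 0 were lower against 6.75%. *H2-K1* at 0.82, *H2-D1* at 0.51 and *Tap2* at 0.49 were higher by less. *B2m* at −0.054 and *Psmb10* at 0.012 were close to 0. The median over the 10 genes was 0.95, and over all genes 0.079.

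In the epididymal depot, eWAT_DFAT over eWAT_ASPC, 0 of 9 members were higher by 2-fold or more against 8.10% of all genes, and 0 were lower against 7.47%. *Tap2* came closest at −0.95 (−1.07 to −0.84), followed by *Psmb8* at −0.83 (−0.89 to −0.76), *Tapbp* at −0.54 and *Tap1* at −0.36. *B2m* was at 0.63, *H2-D1* at 0.41 and *Nlrc5*, which lies under the 1 CPM limit, at 1.34 (0.97 to 1.71). *H2-K1* (0.00086) and *Psmb9* (−0.11) had intervals that spanned 0. DFAT cells of eWAT thus held more light chain and *H2-D1* transcript than SVF cells, and less transporter, tapasin and *Psmb8*. The 4 comparisons share libraries in pairs, so they are not independent of each other.

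**Figure D2:**
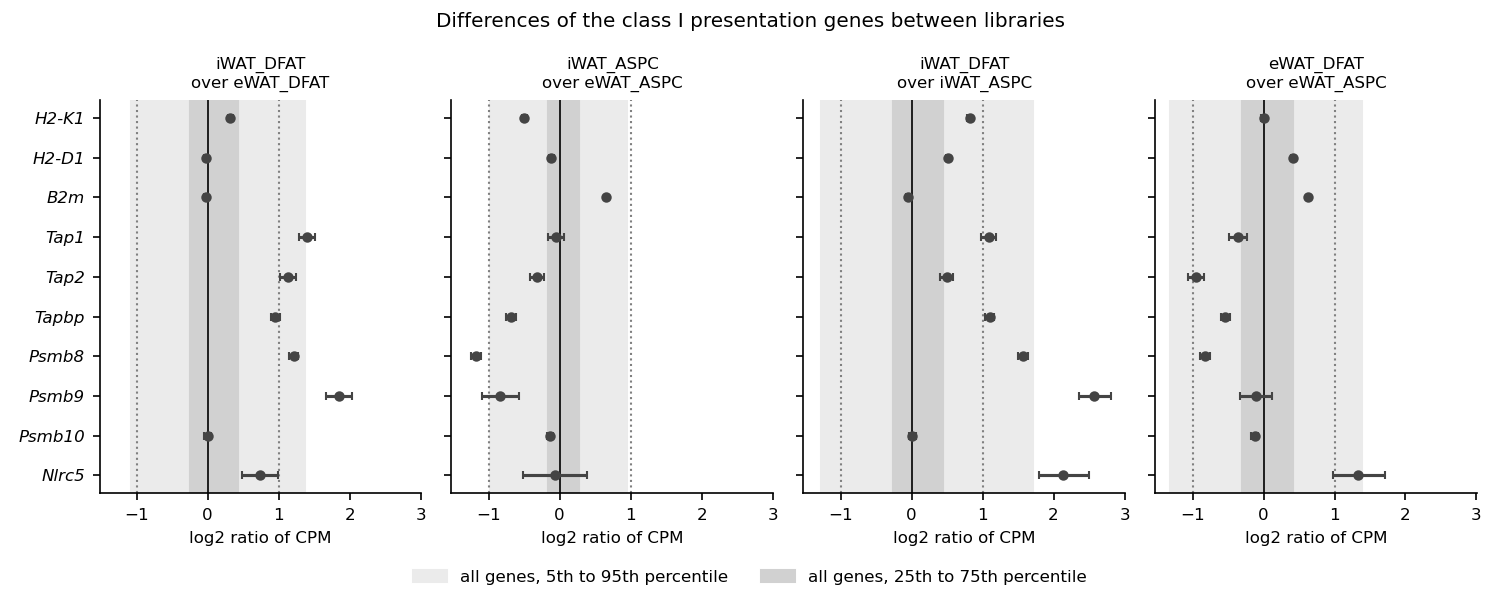
Log2 ratios of CPM (x axes, dotted lines at 2-fold) of the 10 genes (y axis) in the 4 comparisons, with 95% intervals for counting error. Light and dark grey show the spread of the 12972 genes with a mean of 1 CPM or more, and *Psmb9* lies beyond the light grey band in both comparisons that have iWAT_DFAT on top.

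Among the inducible subunits, each was also set against the constitutive subunit that it replaces, since a change in proteasome content alone would move both. The UMIs are not corrected for length or capture, so each ratio is compared only between libraries. Per 100 UMIs of *Psmb5* there were 16.5 UMIs of *Psmb8* (16.1 to 16.99) in iWAT_DFAT, 4.98 (4.79 to 5.17) in eWAT_DFAT, 4.19 (4.01 to 4.36) in iWAT_ASPC and 8.38 (8.14 to 8.61) in eWAT_ASPC. Per 100 UMIs of *Psmb6* there were 2.84, 0.586, 0.392 and 0.661 UMIs of *Psmb9*. Per 100 UMIs of *Psmb7* there were 37.2, 28.5, 28.7 and 37.8 UMIs of *Psmb10*. The order for *Psmb8* was that of its level, but the gap between the DFAT libraries was wider, because *Psmb5* stood at 210.7 CPM in iWAT_DFAT and 302.3 CPM in eWAT_DFAT. *Psmb10*, level by itself, was higher against its counterpart in iWAT_DFAT and eWAT_ASPC. All 14 listed constitutive core subunits stayed within 2-fold in the 4 comparisons, and their median log2 ratios were −0.45, 0.038, −0.25 and 0.25 in the order given above. *Psma7* (−0.73), *Psma3* (−0.54) and *Psmb2* (−0.52) had the largest ratios between the DFAT libraries, all lower in iWAT_DFAT.

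**Figure D3:**
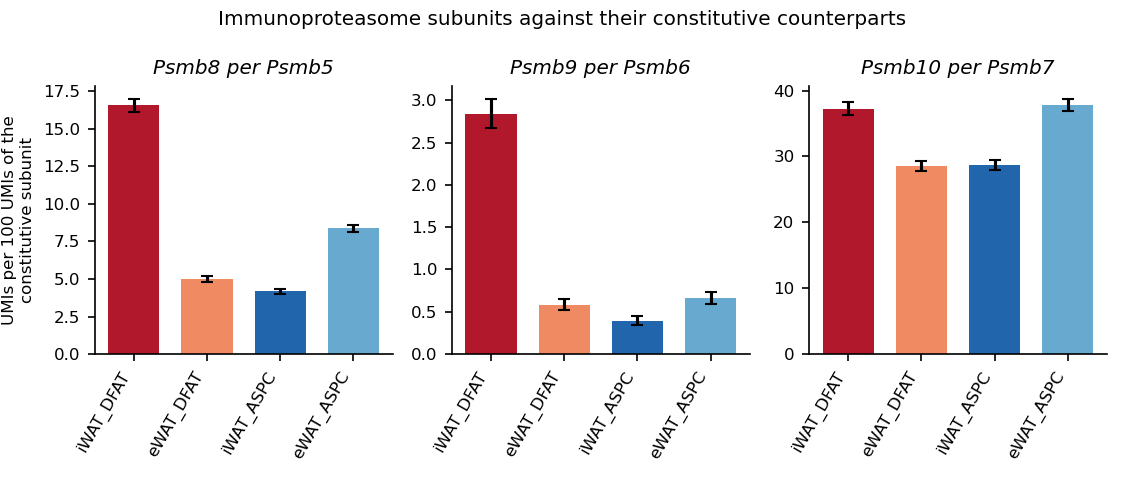
UMIs of each inducible proteasome subunit per 100 UMIs of the constitutive subunit it replaces (y axes, linear from 0) in the 4 libraries (x axes), with 95% binomial-based intervals for counting error. *Psmb8* and *Psmb9* are highest in iWAT_DFAT, while *Psmb10* is high in iWAT_DFAT and eWAT_ASPC.

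Other genes of the pathway were taken from lists. Of the other class I heavy chains, 17 of 18 listed were in the files and 9 passed 1 CPM. In iWAT_DFAT over iWAT_ASPC, 5 of the 9 were higher by 2-fold or more, against 10.5% of all genes. The median log2 ratio was 1.04. *H2-Q7*, of the Qa-2 group, was at 6.20 CPM against 0.572 CPM (log2 ratio 3.44), *Cd1d1*, which presents lipids, at 11.7 against 2.53 CPM (2.20) and *H2-Q4* at 8.91 against 2.56 CPM (1.80). *H2-Q4* shared 21 of 411 end windows with *H2-Q6*, so its counts are less certain. Between the DFAT libraries 1 of 9 was higher by 2-fold (*H2-Q4*, 1.02), against 8.74% of all genes, with *Fcgrt* at 0.99 and *Hfe* at 0.89. In iWAT_ASPC over eWAT_ASPC 1 was lower (*H2-Q7*, −1.15), against 4.86% of all genes, followed by *Cd1d1* (−0.67) and *Fcgrt* (−0.46). In eWAT_DFAT over eWAT_ASPC *H2-Q7* was higher (1.78), while *Fcgrt*, the neonatal Fc receptor chain that pairs with beta-2 microglobulin (−1.36), and *Mr1* (−1.04) were lower.

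The 13 other listed genes of peptide cutting, trimming and loading, *Psmb5* among them, all passed 1 CPM. Of these, 0 of 13 moved by 2-fold in any of the 4 comparisons, against 4.56% to 10.5% of all genes per comparison and direction. Their medians were 0.13, −0.080, −0.012 and 0.013. *Tapbpl*, a tapasin relative that edits peptides, was at 7.17 against 3.74 CPM between the DFAT libraries (0.94), and *Erap1*, which trims peptides in the endoplasmic reticulum, at 11.6 against 6.85 CPM (0.76). *Psme1* and *Psme2*, the proteasome activator subunits, were at −0.52 and −0.43 in eWAT_DFAT over eWAT_ASPC. The general chaperones showed small differences, with *Canx* at 0.41 in iWAT_ASPC over eWAT_ASPC and *Pdia3* at −0.32 there.

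Of 25 listed regulators of class I genes, 22 passed 1 CPM. Between the DFAT libraries 8 of 22 were higher in iWAT by 2-fold or more, against 8.74% of all genes. Their median log2 ratio was 0.78. In iWAT_DFAT over iWAT_ASPC 9 of 22 were, against 10.5% of all genes, with a median of 0.84. In iWAT_ASPC over eWAT_ASPC 0 moved by 2-fold (median −0.13), against 4.56% of all genes higher and 4.86% lower. In eWAT_DFAT over eWAT_ASPC 1 was higher and 1 lower (median 0.040), against 8.10% and 7.47% of all genes. The regulators from *Irf1* to *Rfx5* below were chosen from the list, and each was highest in iWAT_DFAT. *Irf1*, which binds class I promoters after interferon, was at 11.7 CPM in iWAT_DFAT, 6.96 in eWAT_DFAT, 5.55 in iWAT_ASPC and 5.91 in eWAT_ASPC, and *Irf9*, a transcription factor of the interferon response, at 15.2, 5.93, 7.12 and 11.8 CPM. *Nfkb1*, an NF-κB subunit, stood at 307, 149, 55.5 and 50.4 CPM, high in both DFAT libraries. *Socs1*, which damps interferon signalling, was at 16.7, 5.94, 4.64 and 3.80 CPM, and the kinase *Jak2* at 148.9, 68.0, 31.7 and 39.0 CPM. *Rfx5*, part of the complex that recruits NLRC5, was at 6.39, 3.53, 3.84 and 3.47 CPM. The interferon genes themselves were at or near 0, with *Ifnb1* without a UMI in all 4 libraries and *Ifng* at 0.0150 CPM at most.

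Gene length moved with these ratios. The median log2 ratio of the longest 10% of genes was 0.30 in both comparisons with iWAT_DFAT on top, against −0.045 and −0.086 for the shortest 10%, and its part in the ratios of long genes such as *Nlrc5* and *Jak2* was not tested. The neighbours of the 7 members on chromosome 17 give a further measure. Genes of the pathway, regulator, class II and interferon lists, and all H2 genes, were left out of these neighbours. Among 51 other genes past 1 CPM in the interval of 1.35 Mb from *Tapbp* to *H2-D1*, the median log2 ratio was 0.20 between the DFAT libraries and 0.14 in iWAT_DFAT over iWAT_ASPC, against 1.13 and 1.08 for the 7 members. In iWAT_ASPC over eWAT_ASPC the neighbours were at −0.088 and the members at −0.50, and in eWAT_DFAT over eWAT_ASPC at −0.094 and −0.36. Of these 51 neighbours 2 were 2-fold higher between the DFAT libraries, against 8.74% of all genes. They were the complement genes *C4b* (2.84) and *Cfb* (2.26), which were named after their values were seen.

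MHC class II genes present extracellular antigen. Of 7 listed, 3 passed 1 CPM, with median log2 ratios of −0.26, −0.26, 0.28 and 0.42 in the 4 comparisons. The 3 genes did not move together. In DFAT over ASPC libraries *H2-DMb1* was lower, at −1.54 in iWAT and −2.17 in eWAT. *H2-Ab1* (0.76 and 0.78) and *H2-DMa* (0.28 and 0.42) were higher there. Their transactivator *Ciita* averaged 0.0724 CPM over the libraries. Interferon response genes moved far more than the class I genes. Of 22 type I response genes past 1 CPM, 16 were higher by 2-fold or more in iWAT_DFAT over eWAT_DFAT (median 1.60) and 14 were lower in iWAT_ASPC over eWAT_ASPC (median −1.40). In iWAT_DFAT over iWAT_ASPC 17 were higher (median 2.32), and in eWAT_DFAT over eWAT_ASPC 10 were lower and 1 higher (median −0.86). Of all genes past 1 CPM, 8.74%, 4.86%, 10.5%, 7.47% and 8.10% moved in these ways, in the same order. *Ifit3* was at 7.44 against 0.851 CPM between the DFAT libraries (3.13), and the ubiquitin-like *Isg15* at 1.88 against 67.2 CPM between the ASPC libraries (−5.16). Of 11 interferon-induced GTPase and chemokine genes past 1 CPM, 9 were higher by 2-fold or more between the DFAT libraries (median 1.99), against 8.74% of all genes. Between the ASPC libraries 6 were lower and 1 higher by that margin (median −1.21), against 4.86% and 4.56% of all genes. *Irgm2* had a log2 ratio of 2.70 in the former and *Gbp3* of −2.09 in the latter, while *Cxcl9*, a chemokine for T cells, reached 5.30 in iWAT_DFAT over iWAT_ASPC.

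Cells of 1 library differed among themselves in how many type I response genes they showed, and this allowed a look at class I genes inside each culture. Cells of the clusters with ASPC markers, thinned to 5000 UMIs, were grouped by the number of the 25 type I response genes with a UMI. Of these cells, 14.0% in iWAT_DFAT, 2.19% in eWAT_DFAT, 0.963% in iWAT_ASPC and 7.51% in eWAT_ASPC showed 5 or more. In iWAT_DFAT, from cells with 0 such genes to cells with 5 or more, *Psmb9* went from 1.4 to 16.05 CPM, *Psmb8* from 17.1 to 87.3, *Tap1* from 5.3 to 33.4, *H2-K1* from 60.7 to 205.3 and *B2m* from 203.3 to 461.5 CPM. Every class I member was higher in the upper group of that library, and the log2 ratio was 3.49 (2.39 to 4.85) for *Psmb9*, 2.66 (2.06 to 3.31) for *Tap1* and 2.35 (2.01 to 2.70) for *Psmb8*. The smallest were *B2m* at 1.18 (1.08 to 1.29), *H2-D1* at 1.25 and *Psmb10* at 1.32. The share of all genes higher in that upper group is not given here, and the groups were not matched for cluster or cell cycle.

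*Psmb10*, level between libraries, was higher in the upper group of each library by nearly the same amount, with log2 ratios of 1.32, 1.30, 1.27 and 1.26. *Psmb8* was higher by 2.35, 3.04, 2.44 and 1.95 in the same order. *H2-K1* had ratios of 1.76 in iWAT_DFAT, 2.49 in eWAT_DFAT, 1.11 in iWAT_ASPC and 0.79 in eWAT_ASPC. *Tap2* was higher in the upper group beyond counting error in iWAT_DFAT only, with a log2 ratio of 1.38 (0.79 to 2.01). Its intervals spanned 0 in eWAT_DFAT (1.10, −0.65 to 2.54, with 5 UMIs in the upper group), iWAT_ASPC (0.51, −1.40 to 1.94, with 4 UMIs) and eWAT_ASPC (−0.18, −1.05 to 0.66, with 21 UMIs). *Tap1* in eWAT_ASPC was at 2.89 (1.79 to 4.19). Counts were small in the upper groups of eWAT_DFAT (127 cells) and iWAT_ASPC (67 cells), with 8 and 3 UMIs of *Psmb9*.

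Within the same group, some members still differed between the libraries and others did not beyond counting error. The groups with 3 to 4 and with 5 or more response genes do not hold that number fixed. The most response genes in a cell was 21 in iWAT_DFAT and 12 in eWAT_DFAT. Among cells with 0 response genes, *Psmb8* was at 17.1 CPM in iWAT_DFAT, 7.8 in eWAT_DFAT, 9.9 in iWAT_ASPC and 17.5 in eWAT_ASPC. Its log2 ratio between the DFAT libraries was 1.13, 1.18, 0.97 and 1.11 in the groups with 0, 1, 2 and 3 to 4 genes. In the group with 5 or more it was 0.44, with an interval that spanned 0 (−0.028 to 0.93). The 1.21 given above is over all cells, an unlike set. In the ungrouped clusters with ASPC markers *Psmb8* was at 34.9 CPM in iWAT_DFAT against 13.4 in eWAT_DFAT. *Tapbp* kept a ratio of 0.89 to 1.21 in all 5 groups. *H2-K1* was higher in iWAT_DFAT by 0.29 to 0.42 in the first 4 groups and at −0.31 in the last. *Psmb9* between the DFAT libraries was at 0.097 (−1.60 to 1.75) in cells with 0 genes, 2.29, 1.80 and 2.59 in the next 3 groups, and 0.35 (−0.70 to 1.61) in the last. *Tap1* was at 0.35 (−0.50 to 1.20) in cells with 0 genes and 0.74 to 1.63 in the other groups. For *B2m* in iWAT_ASPC over eWAT_ASPC the ratio was 0.70 to 1.06 in all 5 groups. *Psmb9* in that comparison was at −0.84 over all cells and already at −0.32 in the ungrouped clusters with ASPC markers, from which these groups come. In the 5 groups it was at 1.40, 1.09, 0.042, 0.71 and 1.499, on 1 to 16 UMIs per library and group, and each interval spanned 0. These groups were formed after the data had been seen, and the thinned counts behind a group do not measure interferon itself.

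**Figure D4:**
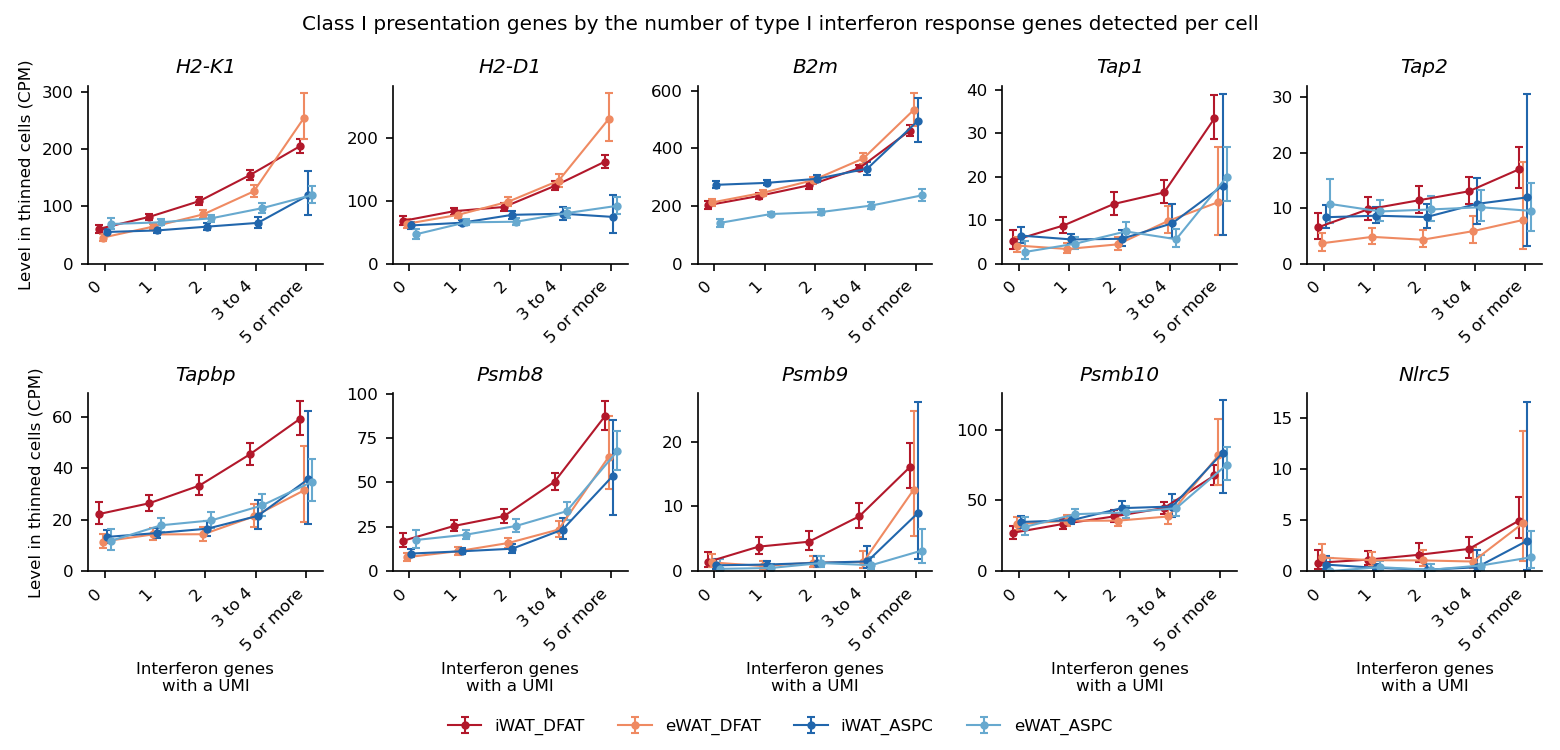
Levels of the 10 genes in CPM of thinned counts (y axes, linear from 0) in cells grouped by how many of 25 type I interferon response genes had a UMI (x axes), for cells of the clusters with ASPC markers. Lines join the groups of 1 library and whiskers are 95% Poisson intervals, and *Psmb8* climbs in all 4 libraries while *Tap2* does not climb in eWAT_ASPC.

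Within iWAT_DFAT the levels also differed between clusters. In a cluster of 2305 of its cells, led by *Saa3*, *Pi16* and *Ifitm1* among others, *H2-K1* was at 164.4 CPM, *Psmb8* at 51.6, *Tapbp* at 54.3, *Tap1* at 18.8 and *Psmb9* at 9.27 CPM. In the other 3 large clusters, of 2267, 1524 and 1139 cells, *H2-K1* was at 79.1 to 87.6, *Psmb8* at 27.1 to 35.2, *Tapbp* at 20.7 to 27.5, *Tap1* at 10.9 to 12.3 and *Psmb9* at 4.14 to 4.98 CPM. The first cluster held few dividing cells, with 150.6 CPM summed over the 11 listed cell cycle genes against 450.5 to 3206 CPM in the other 3. A further cluster of 119 cells had high *H2-K1* (141.5 CPM) and *Tapbp* (62.6 CPM) but *Psmb8* at 27.0 CPM. The listed interferon genes were kept out of the clustering, but the genes that lead the clusters are not independent of the cells compared. *Psmb8* varied less in the other 3 libraries, at 13.0 to 14.2 CPM over the main clusters of eWAT_DFAT, 11.4 to 12.8 in iWAT_ASPC and 18.1 to 27.8 in eWAT_ASPC.

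Most of the minor cell types carried more class I transcript than the cells with ASPC markers. The unnamed cluster was lower, at 394.6 CPM summed over the 10 genes with all libraries together. The ratio spanned 0 for the 10 pericyte-like cells of eWAT_ASPC (355.1 against 432.0 CPM) and the 78 mesothelial-like cells of eWAT_DFAT (539.4 against 506.8 CPM). Summed over the 10 genes, the endothelial-like cells were at 1676.8 CPM in iWAT_DFAT (16 cells), 1749.5 in eWAT_DFAT (141 cells), 859.6 in iWAT_ASPC (56 cells) and 1155.0 in eWAT_ASPC (135 cells), against 613.4, 506.8, 492.1 and 432.0 CPM in the clusters with ASPC markers of the same libraries. That is 1.75-fold to 3.45-fold higher. In eWAT_DFAT the endothelial-like cells had *H2-K1* at 395.3 CPM against 74.7, *Psmb8* at 71.7 against 13.4 and *Psmb9* at 11.6 against 1.16. Pericyte-like cells of eWAT_DFAT (174 cells) were at 298.7, 49.0 and 12.3 CPM for these genes, and adipocyte-like cells (106 cells) at 350.9, 31.3 and 13.4 CPM. Among classes with 10 or more cells, adipocyte-like cells had the highest *Tapbp*, at 114.8 CPM in eWAT_DFAT and 113.3 CPM in iWAT_DFAT, with *Nlrc5* at 11.4 and 14.0 CPM (23 and 9 UMIs). Their *Psmb8* was at 34.1 CPM in iWAT_DFAT, close to the 34.9 CPM of the cells with ASPC markers.

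Mesothelial-like cells were seen in the eWAT libraries alone, 491 in eWAT_ASPC and 78 in eWAT_DFAT. In eWAT_ASPC they had *Psmb9* at 7.14 CPM against 1.17 (log2 ratio 2.60), *Tapbp* at 76.5 against 20.8 (1.88) and *Tap1* at 12.2 against 5.96 (1.03), but *B2m* at 198.2 against 178.1 (0.15). In eWAT_DFAT the mesothelial-like cells had *Tapbp* at 14.3 CPM, equal to the rest, so the pattern was not shared by both cultures. Immune-like cells, 25 in eWAT_ASPC, held *Psmb8* at 165.7 CPM against 25.6 and *H2-D1* at 412.2 against 69.1. Neural-like cells, 147 in iWAT_ASPC, had a mixed pattern, with *H2-K1* at 43.6 CPM against 60.3 but *B2m* at 441.3 against 282.9. Each class of 1 library comes from 1 culture, and class sizes differ between libraries.

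**Figure D5:**
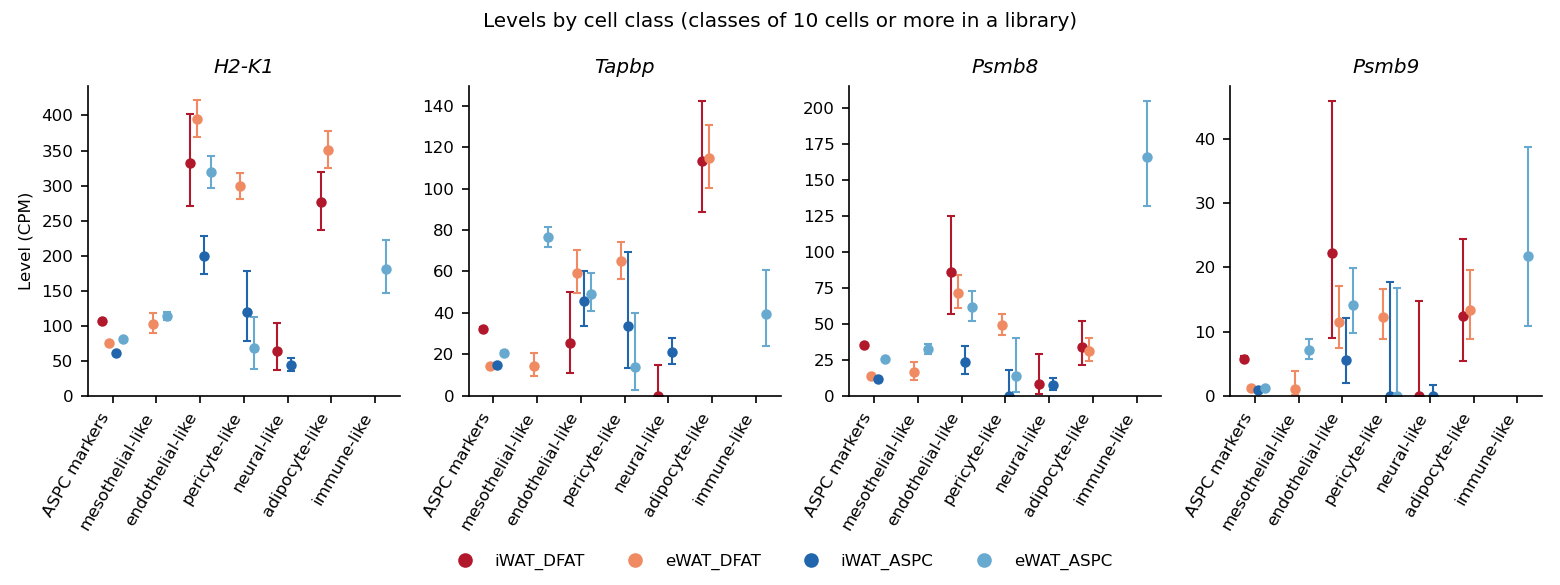
Levels of *H2-K1*, *Tapbp*, *Psmb8* and *Psmb9* in CPM (y axes, linear from 0) by cell class (x axes) and library (colours), for classes with 10 or more cells in a library. Whiskers are 95% Poisson intervals, and endothelial-like cells lie above the cells with ASPC markers of the same library for *H2-K1*, *Psmb8* and *Psmb9*.

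Because of these cells, part of the class I signal of the eWAT libraries came from outside the clusters with ASPC markers. In eWAT_DFAT such cells were 10.47% of cells and held 5.91% of all UMIs, but 17.8% of *H2-K1*, 19.8% of *Tapbp*, 16.2% of *Psmb8* and 32.1% of *Psmb9* UMIs. In eWAT_ASPC they were 12.7% of cells and held 8.66% of all UMIs, 22.2% of *Tapbp* and 38.2% of *Psmb9* UMIs. The mesothelial-like cells alone held 25.1% of all *Psmb9* UMIs of that library. In iWAT_DFAT they were 2.16% of cells and held 1.08% of *Psmb8* and 1.88% of *Psmb9* UMIs. The high levels of iWAT_DFAT were therefore those of its cells with ASPC markers, where *Psmb8* was at 34.9 CPM and *Psmb9* at 5.76 CPM. Summed immune markers were at 19.9, 18.0, 21.6 and 69.0 CPM over all cells for the libraries in the order used above, with 3, 1, 1 and 1 of the 12 listed genes at 0. In iWAT_DFAT, where the summed class I genes were highest, *C1qa*, *C1qb* and *Cd3e* had no UMI. Most of the immune marker sum there was *Csf1r* at 18.4 CPM.

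Members of the pathway varied together only weakly from cell to cell. In the thinned cells with ASPC markers, the median Pearson r over the 45 pairs of members was 0.052 in iWAT_DFAT, 0.037 in eWAT_DFAT, 0.010 in iWAT_ASPC and 0.0086 in eWAT_ASPC, and the highest was 0.31, for *H2-K1* with *H2-D1* in eWAT_DFAT. Over all cells of eWAT_DFAT that pair reached 0.47. The pairs share library, cells and depth, and counts per cell are sparse, so these values are descriptions. By the lowest of the 4 within-library correlations with the summed members, the 10 genes most like them of 7061 ranked were *Itm2b* (0.17), *Ifitm3* (0.17), *Bst2* (0.16), *Ctsd* (0.16), *Igfbp7* (0.15), *Dcn*, *Psap*, *Ctsl*, *Ifitm2* and *Lgals3bp* (0.11). Over all ranked genes the median was −0.023 and the 99th percentile 0.056. *Ifitm3*, *Ifitm2* and *Bst2* are interferon-induced restriction factors, and *Ctsd*, *Ctsl* and *Psap* encode lysosomal proteins.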

How the data were processed

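Whole-number UMI counts per gene and barcode were deposited for 4 droplet libraries, made by the authors with Cell Ranger (version 7.0.0 per the submitters' processing notes, 7.1.0 or 4 per the file headers) against mm10, before removal of free RNA or cells. The study's methods state that introns were counted, with version 7.0.0. Whether this held for iWAT_ASPC, whose header names Cell Ranger 4, is not known. The deposited counts were filtered to cells as described above; the 228, 191, 193 and 185 barcodes of iWAT_DFAT, eWAT_DFAT, iWAT_ASPC and eWAT_ASPC over 7500 genes alone were left out. The study's own lower limit of 500 UMIs would keep 7796, 6988, 7843 and 7353. Its CellBender, DoubletFinder and Seurat steps were not run.

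Counts were summed over cells and scaled to 1000000 UMIs. Levels have exact Poisson intervals, shares exact binomial intervals and ratios exact conditional binomial intervals. Only the ratio intervals were run on simulated data. These were independent Poisson counts, as the intervals assume, so the run does not show coverage for cells that vary. Reads without independent cultures give counting error only. Cells were clustered with scikit-learn 1.9.0 and python-igraph 0.11.9 (2000 variable genes, 30 components, 20 neighbours, Leiden resolution 1, no batch correction). Kept out of the variable genes were 123 pathway and interferon genes, and genes with symbols starting in mt-, Rpl or Rps. A cluster was named with 3 or more markers at 4-fold and in 25% of its cells. Most clusters came almost wholly from 1 library. A cluster with ASPC markers in iWAT_ASPC had *Krt19*, a mesothelial marker, among its 10 leading genes.

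All 10 members are named. Of other lists the 3 genes with the largest ratios per comparison were chosen, with chosen regulators, and likeness was ranked by correlation. The members, lists and comparisons were chosen with earlier results of these data known. Alternatives were other limits on cells, doublets removed (466, 334, 441 and 364 cells, by Scrublet at 0.8% per 1000 cells, whose own threshold marked too few cells to have worked), free RNA subtracted at 10%, cells weighted equally, median-of-ratios scaling and clusters with ASPC markers only. Computation used scipy 1.17.1 with numpy 2.4.6, pandas 2.3.3 and scanpy 1.11.5, and matplotlib 3.10.9 under Python 3.11.15.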

Additional observations from a re-analysis of the deposited data

Results flagged for a closer look

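For 7 of the genes the depot or the origin contrast ran in opposite directions in the groups compared, beyond counting error on both sides. *Nlrc5* and *Psmb10* also had opposite signs, but on 1 side within counting error. With 1 library per condition these differences were not tested, and the share of all genes under the same rule is not given here. The difference in log2 ratio, iWAT_DFAT over eWAT_DFAT minus iWAT_ASPC over eWAT_ASPC, is the same number as that of the origin contrast between depots. It was 2.68 for *Psmb9* (2.37 to 3.00, counting error only), 2.39 for *Psmb8*, 1.64 for *Tapbp*, 1.45 for *Tap1*, 1.44 for *Tap2* and 0.82 for *H2-K1*. For *B2m* it was −0.68, the other direction.

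*Psmb8*, *Tapbp*, *Tap2* and *B2m* turned in both the depot and the origin contrast, *H2-K1* and *Psmb9* in the depot contrast, and *Tap1* in the origin contrast. For *B2m* 1 side of each contrast was close to 0 and its sign was not stable. iWAT_DFAT over eWAT_DFAT went from −0.030 to 0.031 in the clusters with ASPC markers, and iWAT_DFAT over iWAT_ASPC from −0.054 to 0.020 with cells weighted equally, so the opposite direction was lost there. Over all genes with a mean of 1 CPM or more the median difference was 0.016, and 9.56% of them lay at 1 or more, as did *Tap1*, *Tap2*, *Tapbp*, *Psmb8* and *Psmb9*.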

How the results depend on the processing

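The counts of members past 2-fold (4 between the DFAT libraries, 1 between the ASPC libraries, 4 for iWAT_DFAT over iWAT_ASPC and 0 for eWAT_DFAT over eWAT_ASPC) held with a lower limit of 500 UMIs, no gene limit, a 20% mitochondrial limit, doublets removed and free RNA subtracted. For eWAT_DFAT over eWAT_ASPC the count became 1 with cells weighted equally (*Nlrc5* higher), 1 with median-of-ratios scaling (*Tap2* lower) and 1 in the clusters with ASPC markers alone (*Tap2* lower). Equal weights gave 5 for iWAT_DFAT over iWAT_ASPC. In both counts *Nlrc5* was added because its mean passed 1 CPM under equal weights, since its ratios were past 2-fold already. The clusters with ASPC markers gave 5 between the DFAT libraries, adding *Tapbp*. No ratio past 2-fold changed sign in these alternatives. Some ratios near 0 did, in 16 cases over *H2-K1*, *H2-D1*, *B2m*, *Tap1*, *Psmb10* and *Nlrc5*, for *H2-D1* between the DFAT libraries from −0.021 to 0.14 in the clusters with ASPC markers. In those clusters *Psmb9* shifted between the ASPC libraries from −0.84 to −0.32 and between the DFAT libraries from 1.85 to 2.31. With free RNA subtracted, *Nlrc5* shifted between the ASPC libraries from −0.063 to −0.43. No paired analysis was made, since the labels give no replicate numbers and each condition has 1 library. Depth limits *Nlrc5* and *Psmb9* most, at 85 and 194 UMIs in iWAT_ASPC.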
